A study of Rattus norvegicus with 8 samples.

Results

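The cells described here were macrophages or microglia of the rat spinal cord that carried many transcripts of Cxcl1. They were chosen by measured transcript counts rather than by clustering. A cell was kept when at least 3000 unique molecular identifiers (UMIs, each standing for 1 captured transcript) were counted in it, when mitochondrial genes took at most 10% of them, and when it held at least 3 UMIs of Tyrobp, at least 2 of Cd68, at least 5 of Cxcl1 and at most 1 of Mki67 and Top2a together. This selection gave 7953 cells, named Cxcl1-high macrophages below. They made up 11.6% of the 68658 deposited cells and 36.9% of the 21543 cells that met every condition except that on Cxcl1. The remaining 13590 of these cells, with fewer than 5 Cxcl1 UMIs, are named Cxcl1-low macrophages and came from the same libraries. The rule held no gene that separates microglia from macrophages derived from blood monocytes, so both names cover either kind.

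Spinal cords of female Wistar rats aged 8 weeks were dissociated 7 days after surgery, and a segment of 10 mm around the lesion was profiled by droplet-based single-cell RNA sequencing. All animals had a laminectomy. The sham group had no further injury. A weight of 10 g fell onto the exposed cord from 12.5 mm in mild, 25 mm in moderate and 50 mm in severe injury. Each group had 2 libraries. The study describes as many sequenced cords as there are libraries, so a library is taken as a single cord, and p-values measure the spread between cords and their preparation together.

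The libraries held 79348337 and 31482153 UMIs in sham, 110362657 and 114899143 in mild, 119743246 and 95232897 in moderate and 49057303 and 131045446 in severe cords. Of the Cxcl1-high cells, replicates 1 and 2 gave 59 and 242 for sham, 1056 and 1019 for mild, 1349 and 921 for moderate and 797 and 2510 for severe cords, and pairs of values below follow the same order of replicates. Severe replicate 2 alone gave 31.6% of them. The median depth per cell was 9165 to 19574 UMIs over the libraries in Cxcl1-high and 8910 to 16412 UMIs in Cxcl1-low cells, and the gap was widest in sham replicate 2, at 15879.5 against 11042.5 UMIs. Between 5 and 40 cell barcodes were shared by each of the 28 pairs of libraries, and 4 such coincidences involved Cxcl1-high cells in both libraries. No doublets had been removed here. The cells with the highest Scrublet scores (7.7% of each library) made up 8.47% to 16.0% of Cxcl1-high and 4.34% to 10.8% of Cxcl1-low cells.

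Some libraries stood apart from the others before any comparison was made. In sham replicate 1 the Cxcl1-high cells had a median of 22 S100a8 and S100a9 UMIs, transcripts typical of neutrophils, against a median of 0 in the other 7 libraries. Every cell of that library was then thinned to 3000 UMIs. S100a9 was found in 91.5% of Cxcl1-high cells, 95.5% of Cxcl1-low cells and 90.1% of oligodendrocytes, which should lack it. Its presence in oligodendrocytes is read as background. Shares this high cannot give the size of that background, and its part in the S100a9 level of macrophages was not tested. The summed level of 13 neutrophil markers, of which Slpi was the most abundant, was 35247 CPM (UMIs per 1000000 UMIs of the summed cells) in the Cxcl1-high cells of that library and 104 to 3454 CPM elsewhere. In the Cxcl1-low cells of that library it was 18291 CPM, and Slpi stood at 28012 CPM in its Cxcl1-high and 6720 CPM in its Cxcl1-low cells, whereas S100a9 stood at 4871 and 7647 CPM. One of the 13 markers had no UMI in any Cxcl1-high cell. In both severe libraries mitochondrial genes took a median of 2.51% and 2.32% of the UMIs of Cxcl1-high cells, against 4.04% to 5.39% in sham replicate 2 and the mild and moderate libraries and 2.24% in sham replicate 1. The ribosomal protein gene Rps19 also had other levels in the severe libraries than elsewhere, in both macrophage classes, as given below.

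Cxcl1 encodes a secreted chemokine that draws neutrophils into inflamed tissue through the receptor Cxcr2, and Cxcl2 and Cxcl3 are its close relatives. In macrophages these genes are switched on by Toll-like receptor and interleukin-1 signalling through the transcription factor NF-kB, which also induces its own inhibitors such as Nfkbia and Tnfaip3. After contusion of the spinal cord, resident microglia and macrophages derived from blood monocytes are both known sources of such signals.

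As examples of promoters that held the NF-kB consensus, the 250 bases before the annotated start of Cxcl1, Cxcl2, Nfkbia and Sdc4 are printed 5′ to 3′ from RefSeq (build GRCr8), with matches on either strand in capitals. They were picked for their match. Of the 11 genes named below as higher in Cxcl1-high cells that had a promoter window, 5 held the consensus, namely Arl5c, Cxcl2, Nfkbia, Nfkbiz and Sdc4, and so did 2 of the 7 named as lower, Ppt2 and Tgfbr1. The windows are chr14:17479322-17479571 for Cxcl1, chr14:17467256-17467505 for Cxcl2, chr6:78597073-78597322 for Nfkbia and chr3:173592924-173593173 for Sdc4, all on the minus strand. The counts themselves were made on another build, so no coordinate was carried over.
Cxcl1: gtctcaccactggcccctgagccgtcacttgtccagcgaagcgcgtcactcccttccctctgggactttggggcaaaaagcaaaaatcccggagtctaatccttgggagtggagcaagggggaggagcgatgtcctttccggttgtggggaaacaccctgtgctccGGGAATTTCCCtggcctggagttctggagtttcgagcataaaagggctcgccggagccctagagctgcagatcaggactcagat
Cxcl2: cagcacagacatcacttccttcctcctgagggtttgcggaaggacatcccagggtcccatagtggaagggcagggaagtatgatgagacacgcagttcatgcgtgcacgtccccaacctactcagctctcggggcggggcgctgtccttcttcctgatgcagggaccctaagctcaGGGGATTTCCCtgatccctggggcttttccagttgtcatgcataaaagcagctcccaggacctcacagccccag
Nfkbia: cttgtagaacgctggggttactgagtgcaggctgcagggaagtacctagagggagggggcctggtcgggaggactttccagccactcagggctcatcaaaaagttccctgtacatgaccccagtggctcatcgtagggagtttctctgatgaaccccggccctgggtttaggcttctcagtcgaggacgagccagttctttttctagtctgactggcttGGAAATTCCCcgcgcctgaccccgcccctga
Sdc4: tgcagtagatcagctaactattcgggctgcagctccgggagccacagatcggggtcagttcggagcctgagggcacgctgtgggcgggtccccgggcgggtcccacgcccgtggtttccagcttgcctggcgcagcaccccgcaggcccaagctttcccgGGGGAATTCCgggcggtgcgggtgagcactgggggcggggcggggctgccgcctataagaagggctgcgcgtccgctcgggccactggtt
The capitals began 84 bases before the start of Cxcl1, 74 bases before that of Cxcl2, 31 bases before that of Nfkbia and 90 bases before that of Sdc4. In Cxcl1 and Cxcl2 the run of 11 capitals held overlapping matches. Of all 33469 promoter windows, 6.33% held the NF-kB consensus. A match is a description of the letters and not evidence of binding.

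The first question was how many macrophages of each cord belonged to the Cxcl1-high class. In sham cords 19.3% and 22.0% of macrophages were Cxcl1-high, in mild cords 29.7% and 28.4%, in moderate cords 23.4% and 30.1%, and in severe cords 70.0% and 83.2%. The severe libraries stood well above all others, whereas the mild and moderate libraries overlapped with each other and lay above both sham libraries. The group means were 20.7% ± 1.91 in sham, 29.0% ± 0.95 in mild, 26.7% ± 4.74 in moderate and 76.6% ± 9.35 in severe cords (SD, n = 2 libraries each). Averaged over the 6 injured libraries the share was 44.1%, which was 23.4 percentage points above sham (two-sided exact permutation test over libraries, p = 0.0714). This p is the smaller tail doubled, and in this form it is the smallest p that 2 against 6 libraries allow. With at least 10 Cxcl1 UMIs as the limit the difference was 21.4 points (exact permutation p = 0.214), and moderate replicate 1, at 14.9%, lay below both sham libraries, at 15.1% and 17.2%. With cells of at most 5% mitochondrial UMIs it was 18.7 points (exact permutation p = 0.357), and sham replicate 2, at 33.1%, lay above both mild libraries, at 31.0% and 25.6%, and above moderate replicate 1, at 25.7%. The order of the mild, moderate and sham libraries thus changed with the limits, while both severe libraries stayed highest under each.

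**Figure D1:**
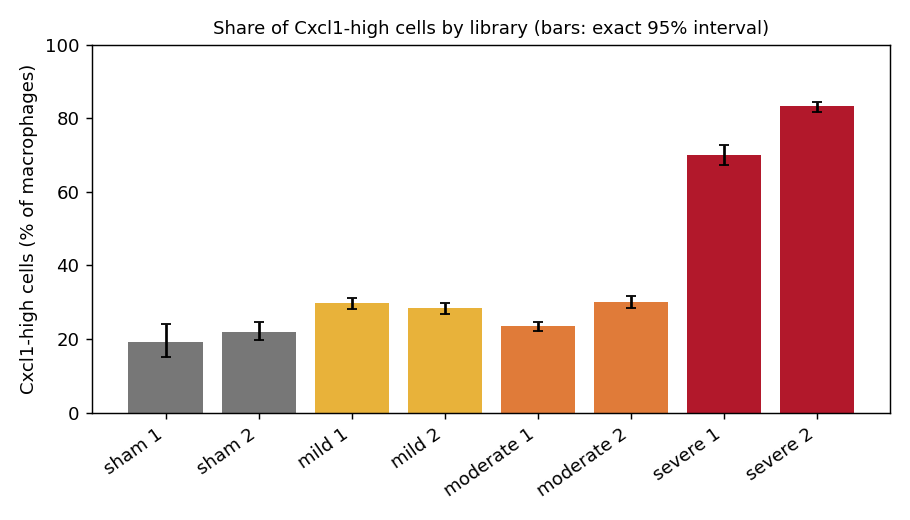
Share of Cxcl1-high cells among macrophages (vertical axis, percent) in each of the 8 libraries, coloured by group, with exact 95% binomial intervals that cover counting error only. The 2 severe libraries reached 70.0% and 83.2%, and the other 6 lay between 19.3% and 30.1%.

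The amount of Cxcl1 per cell was also highest in severe cords. As the rule used this gene, its levels are a description. The median Cxcl1-high cell held 17 and 20 Cxcl1 UMIs in sham, 15 and 16 in mild, 12 and 18 in moderate, and 68 and 143 in severe cords. At least 100 UMIs were counted in 289 cells of severe replicate 1 and in 1607 cells of severe replicate 2, and in 0 to 37 cells of each other library. As a share of all transcripts, Cxcl1 stood at 2346 and 1475 CPM in Cxcl1-high cells of sham, 1671 and 1616 CPM in mild, 1532 and 2564 CPM in moderate and 6320 and 8363 CPM in severe cords. In Cxcl1-low cells it ranged from 18.7 to 62.4 CPM.

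The limits of the rule cut through a continuous range. The 447 cells with 4 Cxcl1 UMIs held Cxcl2 at 798 CPM and Il1b at 299 CPM, and the 389 cells with 5 Cxcl1 UMIs held them at 951 and 260 CPM. With at least 5 Cxcl1 UMIs, the 415 cells with 1 UMI of Cd68 had Cxcl2 at 3695 CPM, and the 444 cells with 2 UMIs had it at 4382 CPM.

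Free RNA in the droplets was measured in oligodendrocytes, which should lack Cxcl1. At most 1.85% of them held 5 or more Cxcl1 UMIs in any library. After every cell had been thinned to 3000 UMIs, 1 or more Cxcl1 UMIs were found in 89.8% to 98.3% of Cxcl1-high cells, 5.26% to 17.5% of Cxcl1-low cells and 0% to 18.5% of oligodendrocytes. In moderate replicate 2 the share in Cxcl1-low cells, 17.5%, lay below the 18.5% of its 54 oligodendrocytes. Before thinning, however, Cxcl1 stood at 62.4 CPM in these Cxcl1-low cells and at 35.4 CPM in these oligodendrocytes. How much of the Cxcl1 of Cxcl1-low cells was background was not tested. The rule fixed a high share of Cxcl1 in Cxcl1-high cells. For Cxcl2, which the rule did not use, the thinned shares were 74.8% to 96.6% in Cxcl1-high cells, 23.3% to 45.9% in Cxcl1-low cells and 0% to 7.17% in oligodendrocytes. Oligodendrocyte medians were 8539.5 to 22538 UMIs before thinning.

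Within each library, Cxcl1-high and Cxcl1-low macrophages were compared to find which other transcripts accompanied Cxcl1. The Cxcl1-high cells carried more of the sister chemokines Cxcl3 and Cxcl2, of the cytokine genes Il1b, Il1a and Tnf, of the NF-kB inhibitor Nfkbia, of Nfkbiz, a nuclear regulator of NF-kB targets, and of the cell surface proteoglycan gene Sdc4. Their heat shock, endoplasmic reticulum chaperone and microglial genes did not pass the test. Summed counts per library and class were tested with edgeR's quasi-likelihood test with the library as a block (Benjamini-Hochberg adjusted p under 0.05). Of 10956 genes tested other than those of the rule, 145 (1.32%) were higher and 79 (0.721%) were lower in Cxcl1-high cells. Among them 43 were at least 2-fold higher and 18 at least 2-fold lower. These transcripts were read from the same cells as Cxcl1, so the test measures co-variation between genes within libraries. All values are levels in CPM and were not compared between genes.

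Cxcl3 had the largest rise among the named genes. It stood at 10114 and 9.9 CPM in Cxcl1-high cells of sham, 43.3 and 34.1 CPM in mild, 82.2 and 348 CPM in moderate and 414 and 307 CPM in severe cords. In Cxcl1-low cells of the same libraries it stood at 1163, 0.875, 8.06, 2.93, 8.23, 22.1, 29.1 and 13.1 CPM. Sham replicate 1 lay far above all other libraries in both classes, but in every library the Cxcl1-high cells were higher (log2 fold change 3.54, SE 0.20, edgeR adjusted p = 2.69e-05). Cxcl2 was measured at 6131 and 1201 CPM in sham, 1704 and 1645 CPM in mild, 1555 and 1607 CPM in moderate and 5183 and 5778 CPM in severe Cxcl1-high cells. The Cxcl1-low cells held 898, 464, 435, 238, 411, 162, 958 and 537 CPM, so that the classes did not overlap (log2 fold change 2.51, SE 0.23, edgeR adjusted p = 0.000763). Cxcl1, Cxcl2 and Cxcl3 are related in sequence, and how reads that fit more than one of them were counted could not be checked.

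**Figure D2:**
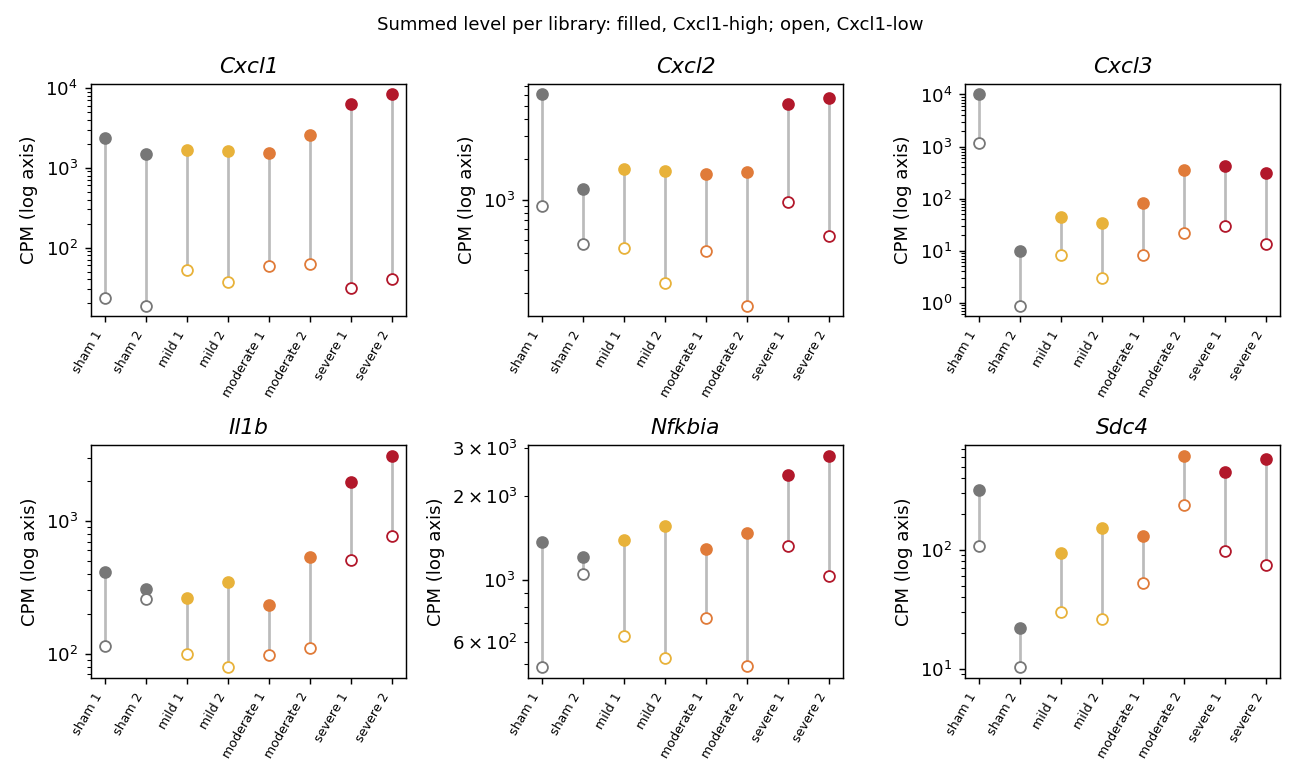
Level (CPM, log axis) of 6 genes in each library for Cxcl1-high cells (filled) and Cxcl1-low cells (open), coloured by group. In all 8 libraries the filled point lies above the open one for each gene, and for Il1b and Nfkbia the pair of sham replicate 2 lies closest together.

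Il1b, which encodes a main cytokine of inflamed macrophages, was at 416 and 305 CPM in sham, 263 and 347 CPM in mild, 232 and 534 CPM in moderate and 1964 and 3104 CPM in severe Cxcl1-high cells. The Cxcl1-low cells had 114, 257, 99.0, 79.5, 98.6, 110, 512 and 764 CPM. Within each library the Cxcl1-high cells were higher (log2 fold change 1.65, SE 0.20, edgeR adjusted p = 0.0049), and both severe libraries were the highest in either class. Nfkbia, the inhibitor that holds NF-kB in the cytoplasm, was at 1374 and 1206 CPM in sham, 1397 and 1568 CPM in mild, 1296 and 1482 CPM in moderate and 2398 and 2806 CPM in severe Cxcl1-high cells, against 486 to 1331 CPM in Cxcl1-low cells. Only in sham replicate 2 was the difference small, at 1206 against 1048 CPM (log2 fold change over all libraries 1.15, SE 0.15, edgeR adjusted p = 0.00746).

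Sdc4 encodes syndecan-4, a heparan sulphate carrier that binds chemokines and growth factors. It was at 319 and 22.1 CPM in sham, 94.5 and 152 CPM in mild, 131 and 621 CPM in moderate and 455 and 586 CPM in severe Cxcl1-high cells, and at 107, 10.3, 29.8, 25.9, 52.1, 240, 97.8 and 75.0 CPM in Cxcl1-low cells. The levels of the 2 classes overlapped between libraries but never within one (log2 fold change 1.88, SE 0.21, edgeR adjusted p = 0.00235). The other rises named by the rule were F13a1, a clotting factor subunit of tissue macrophages, with a log2 fold change of 1.42, Nfkbiz with 1.25, the monocyte attractant Ccl12 with 1.25, the inflammasome sensor Nlrp3 with 1.13, the small GTPase Arl5c with 1.10, the chemerin-binding receptor Ccrl2 with 1.10 and the chemokine Cxcl14 with 1.04. All were higher in 8 of 8 libraries, with edgeR adjusted p from 0.00746 to 0.0198.

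The 12 named falls had smaller fold changes than the 12 named rises. The naming rule asked for a mean of 50 CPM, and rarer genes fell by more, such as the natural killer cell receptor gene Klrb1a (-2.08 on the log2 scale) and the chemokine receptor gene Cxcr1 (-2.01). Gadd45g, a stress-induced growth regulator, had a log2 fold change of -0.77, and Ifitm1, an interferon-induced membrane protein gene, one of -0.69. Ifitm1 was at 296 and 276 CPM in sham, 1391 and 1493 CPM in mild, 1948 and 1413 CPM in moderate and 1641 and 3063 CPM in severe Cxcl1-high cells, and at 419, 384, 2297, 3271, 2725, 2494, 3022 and 4258 CPM in Cxcl1-low cells. Ifitm1 was lower in Cxcl1-high cells of every library, although its level varied more between libraries than between the classes. The falls also included the TGF-beta receptor gene Tgfbr1 (-0.44), the lysosomal enzyme genes Ppt1 (-0.38), Gusb (-0.26) and Ppt2 (-0.22), the histone gene Hist1h2bcl1 (-0.27), the secretory pathway gene Tmed3 (-0.25), and LOC100910270 (-0.66), Gramd2b (-0.41), Ccdc12 (-0.25) and Fbxw4 (-0.22).

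**Figure D3:**
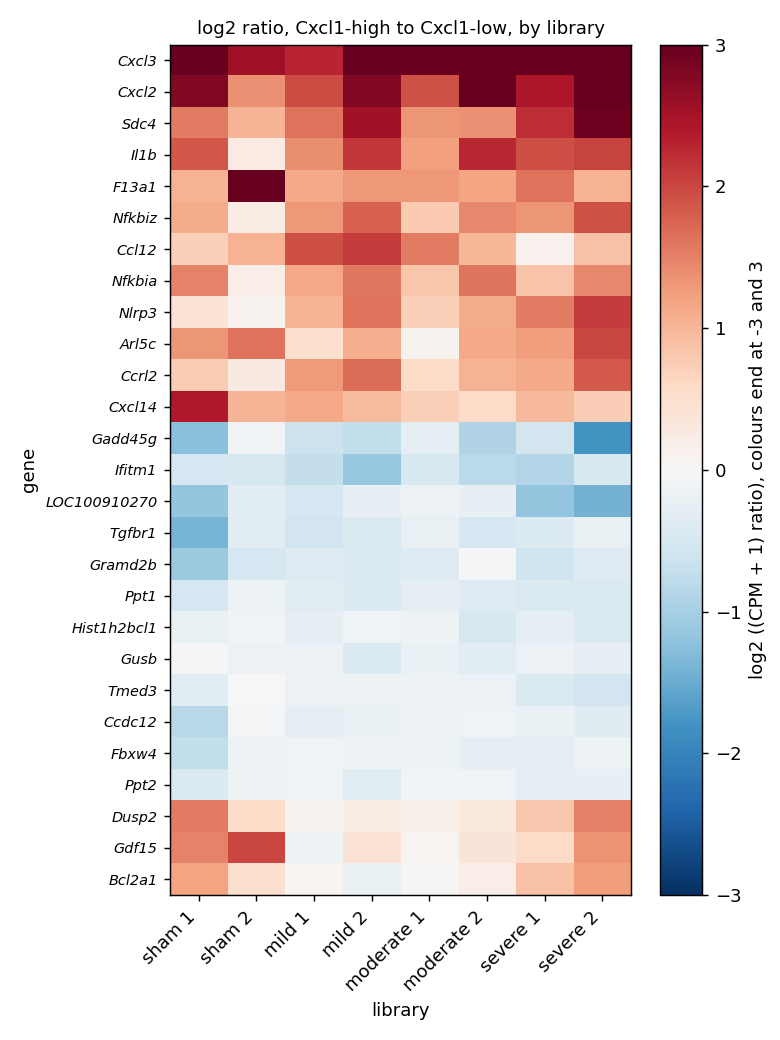
log2 ratio of the level in Cxcl1-high to that in Cxcl1-low cells (colour, computed on CPM + 1, with colours ending at -3 and 3) for the 24 genes named by rule and for Dusp2, Gdf15 and Bcl2a1, in each library (columns). The upper 12 genes are red and the next 12 blue in all 8 libraries, while Gdf15 in mild replicate 1 and Bcl2a1 in mild replicate 2 were lower in the Cxcl1-high cells.

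Some genes of secreted signals rose and none fell. Of 8 CXC chemokines tested other than Cxcl1, 3 rose, namely Cxcl2, Cxcl3 and Cxcl14, and none fell (median log2 fold change 0.61). The interferon-induced chemokine Cxcl10 stood at 63.5 CPM ± 80.8 in Cxcl1-high and 40.8 CPM ± 48.3 in Cxcl1-low cells (SD, n = 8 libraries) and did not pass. Of 9 CC chemokines, Ccl3, Ccl6, Ccl9, Ccl12 and Ccl24 rose (5 of 9, median 1.01). Inflammatory cytokine genes rose in 6 of 12, namely Il1a, Il1b, Il1rn, Il23a, Tnf and Tnfsf9 (median 0.92). Tnf was rare, with at most 23.2 CPM in any library. Il1rn encodes the natural antagonist of interleukin-1 and rose with Il1b (1.02 on the log2 scale). The median of all genes tested was -0.01 for comparison.

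Among 24 NF-kB targets and feedback genes tested, 12 rose and none fell (median log2 fold change 0.68). They comprised the inhibitors and brakes Nfkbia, Tnfaip3, Tnip3 and Zc3h12a, the nuclear regulators Nfkbid and Nfkbiz, the survival and stress genes Birc3, Ier3, Gadd45b and Sod2, the adhesion molecule gene Icam1 and Plek. Ier3 averaged 1348 CPM ± 708 in Cxcl1-high and 686 CPM ± 405 in Cxcl1-low cells (SD, n = 8), and Sod2, the mitochondrial superoxide dismutase, 864 CPM ± 584 and 466 CPM ± 277. Among the 5 subunits of NF-kB itself Rel passed in edgeR, while all 5 had an unadjusted p under 0.05 and DESeq2 called 4 higher (log2 fold changes from 0.20 to 0.47). Of 14 genes of Toll-like receptor signalling, Cd14, Tlr2 and Irak2 rose (median 0.18). Ptgs2, which makes prostaglandins, and Acod1, which makes itaconate, were the 2 of 7 inflammatory enzyme genes that rose.

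Stress programmes that are part of the working label of these cells were also measured. None of 18 heat shock genes, 16 endoplasmic reticulum chaperone genes, 19 Nrf2 antioxidant genes or 10 MAP kinase phosphatase genes passed the test in either direction, with median log2 fold changes of -0.01, 0.05, 0.16 and 0.14. At an unadjusted p under 0.05 there were 2, 3, 5 and 5 genes, and DESeq2 called 0, 1, 2 and 1, all higher. Over all genes tested 16.0% had an unadjusted p under 0.05. The phosphatase (5 of 10) and antioxidant genes (5 of 19) lay above that share, and the chaperone (3 of 16) and heat shock genes (2 of 18) lay near it. Whether these shares differed was not tested. Of 25 genes of the integrated stress response, Ppp1r15a and Cebpb rose and none fell (median 0.04). The response's transcription factor genes Atf4 (219 CPM ± 115 against 209 CPM ± 97.4) and Ddit3 (81.7 CPM ± 47.7 against 81.3 CPM ± 43.9) had like levels in both classes (SD, n = 8). Immediate early genes rose in 1 of 23, the factor gene Maff. The marker genes proposed for these cells besides Cxcl1 were Sdc4, which rose, and Gdf15, Dusp2 and Bcl2a1, which did not pass. Gdf15, a stress cytokine, averaged 163 CPM ± 228 against 104 CPM ± 153 (log2 fold change 0.64, SE 0.22, edgeR adjusted p = 0.177). Dusp2, a MAP kinase phosphatase, averaged 320 CPM ± 279 against 194 CPM ± 113 (0.59 on the log2 scale, SE 0.19, edgeR adjusted p = 0.142, DESeq2 adjusted p = 0.0372), and Bcl2a1, an inhibitor of apoptosis, 1755 CPM ± 1251 against 1142 CPM ± 497 (0.48 on the log2 scale, SE 0.19, edgeR adjusted p = 0.226). All 4 of these markers had an unadjusted p under 0.05. As 3 of them did not pass, these cells are called by their Cxcl1 level here. None of the 8 immune-related autophagy factors that the study centred on passed the edgeR test in this contrast (log2 fold changes from -0.09 to 0.52), with 4 at an unadjusted p under 0.05, against 16.0% of all genes, and 1 called by DESeq2. Of 29 glycolysis and hypoxia genes, P4ha1, Pdk1, Pfkl, Pkm and Tpi1 rose and none fell (median 0.22).

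**Figure D4:**
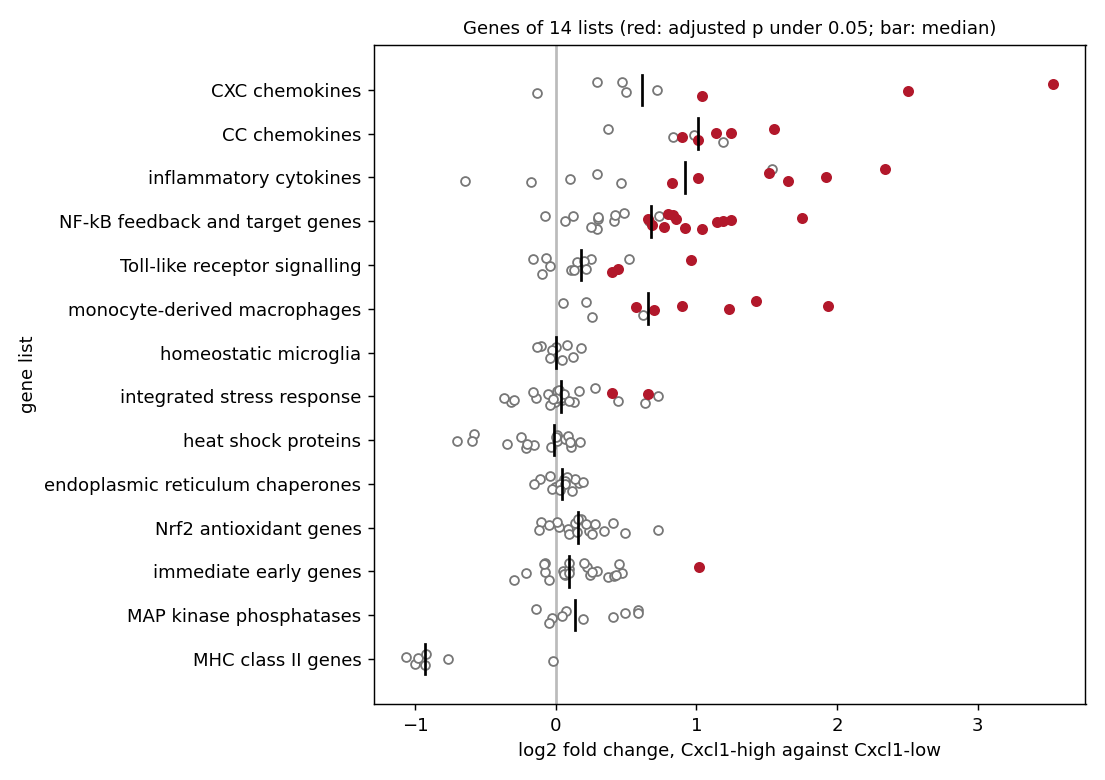
log2 fold change of Cxcl1-high against Cxcl1-low cells (horizontal axis) for the tested members of 14 gene lists without the genes of the rule. Filled red points passed an edgeR adjusted p of 0.05, open points did not, and the black bar is the median of the list. Red points lie in the chemokine, cytokine, NF-kB, Toll-like receptor and monocyte-derived lists, and none in the heat shock, chaperone or microglial lists.

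The markers of origin differed in part. Of 10 genes of monocyte-derived and tissue-border macrophages, 6 rose, namely Vcan, Ms4a7, Mrc1, Cd163, Lyve1 and F13a1 (median log2 fold change 0.66), and their sum with Lyz2 as the most abundant gene was higher in Cxcl1-high cells in 8 of 8 libraries. Mrc1, the mannose receptor, averaged 108 CPM ± 57.5 against 74.5 CPM ± 58.6 (SD, n = 8). The 12 genes of lipid-laden macrophages, with the lipid carrier gene Apoe as the most abundant, summed to less in Cxcl1-high cells in 7 of 8 libraries (mean 62369 against 78469 CPM). None of 11 tested passed in edgeR (median log2 fold change -0.06), with 6 at an unadjusted p under 0.05 and 1 called lower by DESeq2. None of 9 homeostatic microglial genes passed the edgeR test (median 0.00), with 0 at an unadjusted p under 0.05 and 0 called by DESeq2. The median hides opposite directions. The log2 ratio of Tmem119, a marker of resident microglia, was -2.13 and -0.70 in sham, 0.88 and 0.54 in mild, 0.09 and 0.77 in moderate and -0.04 and -0.36 in severe cords, and P2ry12, P2ry13 and Cx3cr1 were likewise lower in Cxcl1-high cells of both sham libraries and higher in those of the mild and moderate libraries. For these 4 genes the difference between injured and sham cords in this contrast did not pass (edgeR interaction term, adjusted p from 0.232 to 0.356), and the Cxcl1-high cells of sham replicate 1 held only 8 UMIs of Tmem119. Tmem119 was at 115 CPM in Cxcl1-high and 187 CPM in Cxcl1-low cells of sham replicate 2, and at 7.93 to 44.8 CPM in both classes of the other libraries. Its level was thus highest in sham replicate 2, in both classes. Of the Cxcl1-high cells of that library 66.5% held Tmem119, 65.7% P2ry12 and 76.4% Cx3cr1. Of the monocyte-derived list, Fn1 was found in 14.5% of them, Mrc1 in 28.5% and Vcan in 1.24%. By these markers most of them were microglia. In the other libraries Tmem119 was found in 5.08% to 18.9% of Cxcl1-high cells. Aif1, a gene of macrophages and microglia that the rule did not use, was at 1307 CPM ± 283 in Cxcl1-high and 1298 CPM ± 365 in Cxcl1-low cells. It was 1 of 10 macrophage genes tested besides those of the rule, of which Cd14 and Fcgr1a rose and none fell (median 0.37). Of the 10, 5 had an unadjusted p under 0.05 in edgeR, and DESeq2 called 4 higher. The 7 MHC class II genes tested had a median of -0.93, but none passed in edgeR, with 6 at an unadjusted p under 0.05 and 4 called lower by DESeq2. Cd74, the class II invariant chain gene, was at 1186 and 904 CPM in sham, 1275 and 467 CPM in mild, 396 and 506 CPM in moderate and 1001 and 1331 CPM in severe Cxcl1-high cells, and at 1493, 879, 2268, 682, 615, 530, 3539 and 5202 CPM in Cxcl1-low cells. The gap was widest in the severe libraries, small in moderate replicate 2 and turned in sham replicate 2.

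Markers of other cell types were measured in the same sums. Their part in the results was not tested beyond leaving out cells by S100a8 and S100a9 or by doublet score. Without cells of over 10 S100a8 and S100a9 UMIs, 139 of the 145 rises and 75 of the 79 falls passed again. That limit left 1 Cxcl1-high and 10 Cxcl1-low cells in sham replicate 1, so this library dropped out of the fit. It therefore cannot check the part of neutrophil transcripts in the library that held most of them. The neutrophil gene S100a9 was lower in Cxcl1-high cells in 8 of 8 libraries (log2 fold change -1.47, SE 0.48, edgeR adjusted p = 0.148), 1 of 9 neutrophil genes, Mmp8, fell, and the summed list was higher in 4 of 8 libraries. The 7 T cell and natural killer cell markers, of which Lck was the most abundant, summed to 4.72 to 22.5 CPM in Cxcl1-high and 9.33 to 59.2 CPM in Cxcl1-low cells and were lower in 8 of 8 libraries, and 1 of 3 tested, Klrb1a, fell. The 7 fibroblast markers, led by Dcn, summed to 11.4 to 950 CPM and 5.64 to 609 CPM and were higher in 7 of 8 libraries, with none of 5 tested past the threshold (2 at an unadjusted p under 0.05, 0 called by DESeq2). The sums were higher in Cxcl1-high cells in 6 of 8 libraries for dendritic cell markers (led by Clec10a), 6 for oligodendrocyte precursor markers (led by Vcan, which is also in the monocyte-derived list and rose), 5 for astrocyte markers (led by Slc1a3), 4 for B cell markers (led by Cd79b), 4 for erythroid markers (led by Hba-a2) and 2 for endothelial markers (led by Cldn5). The dendritic cell markers did not move together. Clec10a was higher in Cxcl1-high cells of all libraries but sham replicate 1, whereas Clec9a and Flt3 were lower in every library. In severe cords the log2 ratios were -3.66 and -3.75 for Clec9a and -2.60 and -2.51 for Flt3. Besides Vcan no gene of these 6 lists passed in edgeR, and DESeq2 called 1 further gene, a dendritic cell marker. Without the cells of the highest doublet scores 143 genes rose and 84 fell, of which 125 and 61 were among the 145 and 79.

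The count of genes depended on the libraries used. Without both severe libraries, an alternative chosen after the data were seen, 73 genes rose and 37 fell, and 65 and 28 of these were among the 145 and 79. Leaving out 1 library gave 75 rises (mild replicate 1) to 247 rises (sham replicate 1). Cxcl3, Cxcl2, Sdc4, Il1b, F13a1, Nfkbiz, Nfkbia, Nlrp3 and Ccrl2 passed under each alternative tried except the fit without a library block, in which no gene passed (edgeR, 127 genes at an unadjusted p under 0.05).

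The third question was how Cxcl1-high cells themselves differed between the injury groups. In severe cords they held more Dusp2, Bcl2a1, Il1b, Gadd45b, Rgcc and Cxcr4 than in sham cords, while mild and moderate cords gave no gene that passed against sham. Most of these genes were higher in the Cxcl1-low cells of severe cords as well. In a fit of all 8 sums, 76 of 11953 genes (0.636%) were higher and 42 (0.351%) lower in severe than in sham cords, and 80 (0.669%) were higher and 58 (0.485%) lower in severe than in mild cords (edgeR adjusted p under 0.05). None passed for mild against sham, moderate against sham or moderate against mild in edgeR, although 2176, 1605 and 1111 genes had an unadjusted p under 0.05 and DESeq2 called 195 higher and 316 lower, 149 and 128, and 36 and 4. Both comparisons of the severe group rest on the same 2 severe libraries, and all comparisons with sham share its libraries. For severe against sham, leaving out either severe library or fitting these 2 groups alone left no gene past the threshold, and leaving out any other library moved the rises to 4 (either mild replicate), 15 (either moderate replicate), 295 (sham replicate 1) or 392 (sham replicate 2). The same fit of the Cxcl1-low sums gave 217 of 12435 genes (1.75%) higher and 120 (0.965%) lower in severe than in sham cords, 261 (2.1%) and 226 (1.82%) in mild and 40 (0.322%) and 12 (0.0965%) in moderate cords. The difference in these counts between the classes was not tested.

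Markers of other cells and states also had other levels in severe than in sham Cxcl1-high cells, and their part in the results was not tested. The erythroid markers, led by Hba-a2, summed to 105 and 1.27 CPM in sham and 194 and 1713 CPM in severe cords (4 genes tested, median log2 fold change 4.44, 1 at an unadjusted p under 0.05). The neutrophil sum was 35247 and 104 CPM in sham and 2334 and 1133 CPM in severe cords (9 tested, median -2.30, 3 at an unadjusted p under 0.05). The lipid-laden sum was 7170 and 30068 CPM in sham and 102676 and 102477 CPM in severe cords (11 tested, median 1.40, 8 at an unadjusted p under 0.05, 5 called higher by DESeq2). No gene of these 3 lists passed in edgeR, and over all 11953 genes 2290 had an unadjusted p under 0.05. The severe libraries were the highest for the lipid-laden sum, the neutrophil sums of the 2 groups overlapped, and the erythroid sum spread widely within both.

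Dusp2 rose from 59.0 and 87.8 CPM in sham to 508 and 910 CPM in severe Cxcl1-high cells (log2 fold change 3.66, SE 0.47, edgeR adjusted p = 0.0216), with 156 to 341 CPM in the mild and moderate libraries. In Cxcl1-low cells it was at 19.3 and 59.6 CPM in sham and 289 and 319 CPM in severe cords (log2 fold change 3.20, SE 0.60, edgeR adjusted p = 0.0458), so both classes were higher in severe cords. Bcl2a1 was at 999 and 1064 CPM in sham, 1087 and 862 CPM in mild, 984 and 1530 CPM in moderate and 3676 and 3836 CPM in severe Cxcl1-high cells (severe against sham 2.25 on the log2 scale, SE 0.33, edgeR adjusted p = 0.0307). In Cxcl1-low cells Bcl2a1 rose from 442 and 751 CPM in sham to 2011 and 1621 CPM in severe cords (1.90 on the log2 scale, SE 0.38, edgeR adjusted p = 0.0497). Gdf15 was at 7.08 and 74.6 CPM in sham, 32.0 and 56.0 CPM in mild, 59.2 and 167 CPM in moderate and 701 and 206 CPM in severe cords. The severe libraries were the highest for all 3 genes, but the spread of Gdf15 within groups was wide and it did not pass (edgeR adjusted p = 0.14, DESeq2 adjusted p = 0.00216).

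Il1b was higher in severe than in sham cords (log2 fold change 3.22, SE 0.49, edgeR adjusted p = 0.0358) and than in mild cords (3.51 on the log2 scale, SE 0.50, edgeR adjusted p = 0.0244). In Cxcl1-low cells Il1b was 2.07 higher in severe than in sham cords on the log2 scale (SE 0.48, edgeR adjusted p = 0.0675), and Gadd45b was 2.49 higher (SE 0.38, edgeR adjusted p = 0.0271). Inflammatory cytokine genes rose in 1 of 18 against sham and in 3 of 18, Il1b, Il23a and Tnf, against mild cords (median log2 fold change 2.27, against -0.07 for all genes). Of 24 NF-kB targets 5 rose against sham, namely Bcl2a1, Gadd45b, Nfkbib, Tnfaip2 and Zc3h12a (median 1.50, against -0.03 for all genes). Cxcl2 had 6131 and 1201 CPM in sham and did not pass (log2 fold change 0.98, edgeR adjusted p = 0.423). Without sham replicate 1, the library with the highest Cxcl2 level, its log2 fold change was 2.56 (edgeR adjusted p = 0.0133), and under the other alternatives it ranged from 0.28 to 1.17 (adjusted p from 0.283 to 0.687).

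Rgcc, a cell cycle regulator induced by complement, had the largest rise against sham by the naming rule, from 27.2 and 29.4 CPM to 952 and 1021 CPM (log2 fold change 5.50, SE 0.71, edgeR adjusted p = 0.0216). It stood at 431 and 141 CPM in mild and 377 and 978 CPM in moderate cords. In Cxcl1-low cells Rgcc rose from 31.7 and 35.2 CPM in sham to 757 and 567 CPM in severe cords (log2 fold change 4.63, SE 0.64, edgeR adjusted p = 0.0194). Cxcr4, the receptor of Cxcl12 and 1 of the 8 autophagy factors of the study, rose from 47.2 and 10.9 CPM to 364 and 315 CPM (log2 fold change 4.04, SE 0.68, edgeR adjusted p = 0.0461). Its levels in mild and moderate cords were 87.9 to 215 CPM, between those of sham and severe cords. In Cxcl1-low cells Cxcr4 rose from 22.8 and 12.4 CPM in sham to 303 and 292 CPM in severe cords (log2 fold change 4.47, SE 0.34, edgeR adjusted p = 0.00641). Whether the rises differed between the classes was not tested. The other 7 autophagy factors did not pass. Cd8a, expressed by some rat macrophages, rose by 4.18 and Fcnb, a ficolin, by 4.16 on the log2 scale. Ccl12 fell, from 259 and 128 CPM in sham to 25.1 and 24.3 CPM in severe cords (log2 fold change -2.57, SE 0.44, edgeR adjusted p = 0.0482).

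**Figure D5:**
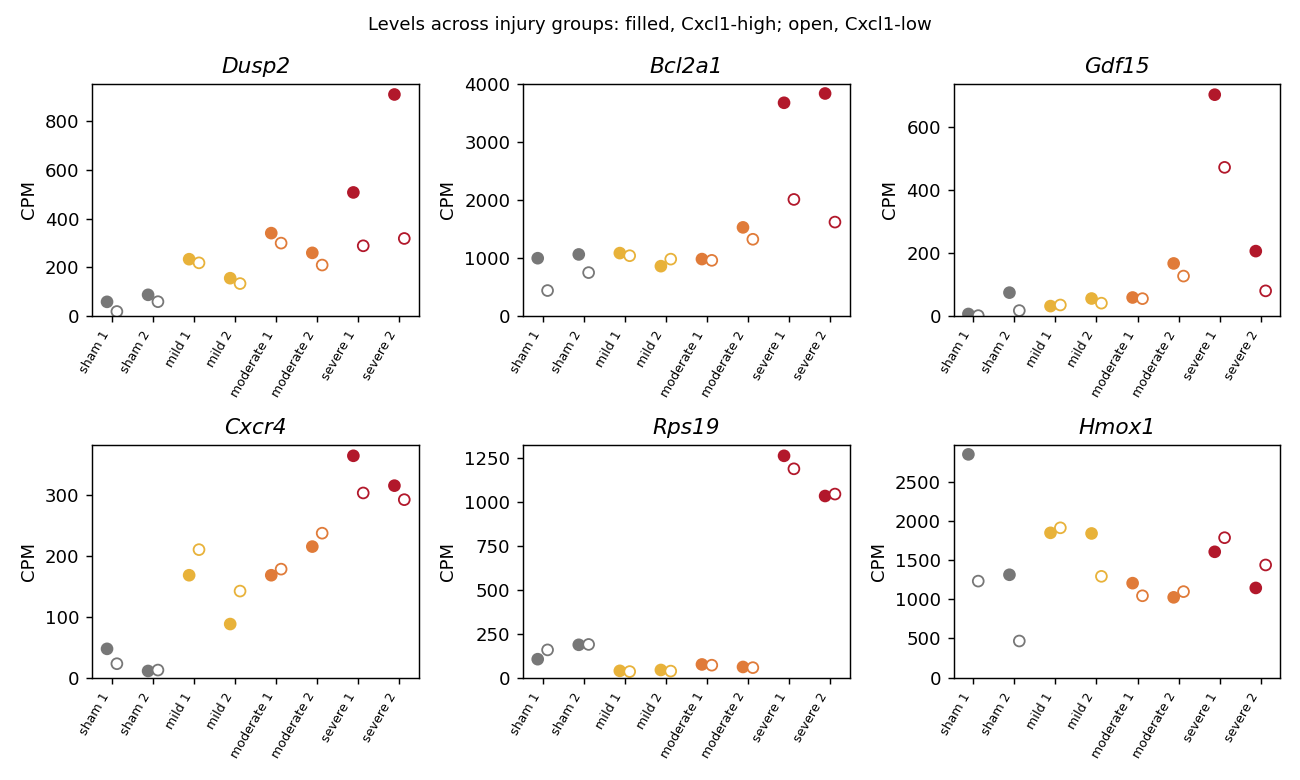
Level (CPM, linear axis) of 6 genes in each library for Cxcl1-high cells (filled) and Cxcl1-low cells (open), coloured by group. Bcl2a1 and Cxcr4 were highest in the severe libraries in both classes and Dusp2 in Cxcl1-high cells, Rps19 set the severe libraries apart in both classes, and Hmox1 differed between the classes most in sham.

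The remaining genes named by the rule in the severe comparisons were of another kind. Against mild cords the largest rises were the ribosomal protein genes Rps19 and Rps6 and the loci LOC108349682, LOC108348142 and LOC108351137 (the last by 1 of its 2 identifiers), and the largest falls were AABR07025010.1, AABR07002792.2, Sumo4, AC128960.1 and the mitochondrial gene Mt-co3. The first 4 of these falls were also the largest against sham. Rps19 was at 105 and 187 CPM in sham, 38.6 and 43.5 CPM in mild, 75.0 and 60.7 CPM in moderate and 1264 and 1035 CPM in severe Cxcl1-high cells, and at 158, 189, 34.4, 37.1, 70.8 and 56.8 CPM in the sham, mild and moderate and 1190 and 1046 CPM in the severe Cxcl1-low cells. It was also higher in severe than in sham Cxcl1-high cells (log2 fold change 3.34, edgeR adjusted p = 0.0157), below the folds of the 5 rises named there. Sumo4 was at 122 and 295 CPM in sham, 83.8 and 56.6 CPM in mild, 59.6 and 52.6 CPM in moderate and 6.49 and 3.35 CPM in severe Cxcl1-high cells, and at 147, 271, 80.8, 47.9, 53.8, 52.2, 5.93 and 2.58 CPM in Cxcl1-low cells. Rps19 and Sumo4 separated the severe libraries in Cxcl1-low as in Cxcl1-high cells. In Rps19 and Sumo4 both severe libraries lay apart from all 6 others, so preparation and injury cannot be told apart for these genes, nor for the share of Cxcl1-high cells and the rises of Dusp2, Bcl2a1, Il1b, Rgcc and Cxcr4 in severe cords.

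The last question was whether the difference between Cxcl1-high and Cxcl1-low cells was the same in injured and sham cords. For 9 of 10956 genes (0.0821%) it was smaller in injured than in sham cords, and for none was it larger (edgeR interaction term, adjusted p under 0.05). At an unadjusted p under 0.05 there were 1317 genes in either direction, and DESeq2 called 56 larger and 92 smaller. They were the antioxidant genes Hmox1, Nqo1 and Gpx2, the heme transporter gene Slc48a1, the metal-binding protein gene Mt2A, the growth factor gene Areg, and Anxa2, Tagln2 and Iqgap2, which act at the membrane and cytoskeleton. Hmox1, which degrades heme, was at 2848 and 1312 CPM in Cxcl1-high and 1231 and 467 CPM in Cxcl1-low cells of sham. In the injured libraries it was at 1024 to 1847 CPM in Cxcl1-high and 1044 to 1911 CPM in Cxcl1-low cells, so the classes were apart in sham cords and overlapped after injury (difference of the log2 fold changes -1.43, SE 0.16, edgeR adjusted p = 0.019). Nqo1 was at 292 and 15.0 CPM in Cxcl1-high and 61.2 and 5.35 CPM in Cxcl1-low cells of sham, and at 14.7 to 35.7 and 13.6 to 35.3 CPM in injured cords. Gpx2 was high in sham replicate 1 alone, at 456 against 73.2 CPM, with 0 and 0.292 CPM in sham replicate 2. Without sham replicate 1, which holds 59 Cxcl1-high cells and the neutrophil transcripts described above, none of the 9 genes passed in edgeR, and the same held without moderate replicate 2, without severe replicate 1 and in cells of 8000 to 20000 UMIs.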

How the data were processed

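The authors deposited 1 table of UMI counts per gene and cell for each library, made with Cell Ranger on the Rnor_6.0 build. The file headers give Cell Ranger version 5.0.1 and the methods 6.0.1. The counts were used as deposited, over 32623 genes, and the authors' own clusters were not used here. The chosen cells and gene lists were fixed with earlier results of these data known, so they are no independent evidence.

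Cells were selected by the UMI limits given above. Counts were summed per library and class, for libraries with at least 20 cells of a class, and given as CPM, that is per 1000000 UMIs of the sum. Genes kept by filterByExpr were tested in edgeR 4.0.16 (R 4.3.3) with TMM scaling, the quasi-likelihood test and Benjamini-Hochberg adjustment over all genes tested, with DESeq2 1.42.0 as an alternative. The genes of the rule (Cxcl1, Tyrobp, Cd68, Mki67, Top2a) were left out of the counts of genes. Shares were compared by a two-sided exact permutation test over libraries, in which the smaller tail was doubled. Exact Clopper-Pearson 95% intervals cover counting error only. Scores for doublets came from Scrublet in scanpy 1.11.5, and cells were thinned at random to 3000 UMIs. On simulated counts, the within-library test recovered 46.0% of 50 genes raised 2-fold and 100% of 50 raised 4-fold over 10811 genes. Severe against sham recovered 0.0% of 50 genes raised 2-fold and 32.0% of 50 raised 4-fold over 11330 genes. Of genes lowered 2-fold and 4-fold the within-library test recovered 48.0% and 94.0%, and severe against sham 8.0% and 22.0%. In the simulation all libraries had the same gene means apart from depth. All genes had 1 common spread, estimated between Cxcl1-high sums of the same group. These shares therefore need not hold for the real counts, above all for the within-library test.

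Genes named in the text were the 12 largest rises and falls (group comparisons: 5) that passed the threshold of 0.05, averaged 50 CPM or more and had 1 direction in every library (groups: no overlap), beside the genes of the rule, the proposed markers, the autophagy factors and list members. S100a9, Cd74, Tmem119, Aif1, Ier3, Sod2, Atf4, Ddit3, Cxcl10, Mrc1, Fn1, Klrb1a, Cxcr1 and the microglial genes were list members chosen as examples after their values were seen. Of 506 distinct list genes, 23 symbols were not analysed here because they did not match the gene table. The markers of 1 other cell type are not reported here.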

Additional observations from a re-analysis of the deposited data

Results flagged for a closer look

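For 9 genes a test of the difference itself found the contrast of Cxcl1-high against Cxcl1-low cells to be smaller in injured than in sham libraries. The difference of the log2 fold changes was -5.59 for Areg, -4.23 for Gpx2, -2.17 for Mt2A, -1.98 for Nqo1, -1.85 for Iqgap2, -1.43 for Hmox1, -1.02 for Slc48a1, -0.95 for Tagln2 and -0.82 for Anxa2 (edgeR adjusted p from 0.019 to 0.0298). Areg and Gpx2 were at 0.254 and 0 CPM in the Cxcl1-high cells of sham replicate 2, so their sham contrast rested on replicate 1.

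In 5 of the 24 named genes 1 library lay far from the other 7 in its log2 ratio of Cxcl1-high to Cxcl1-low cells, a rule by which chance marks about 1 in 20 groups of values that were not selected. These genes were selected for 1 direction in every library, so that rate need not hold for them. F13a1 had a ratio of 3.32 in sham replicate 2, where its level in Cxcl1-low cells was 2.53 CPM. The other 4 were in sham replicate 1, with 2.39 for Cxcl14, -1.39 for Tgfbr1, -0.83 for Ccdc12 and -0.73 for Fbxw4. The part of that library's 59 Cxcl1-high cells in these values was not tested beyond leaving the library out.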

How the results depend on the processing

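In the within-library contrast the 24 named genes kept their direction under each alternative, which the naming rule, with 1 direction in every library, largely fixed. The 145 rises and 79 falls became 342 and 163 with DESeq2, 387 and 361 with at least 5 Cxcl1 UMIs per 10000, 280 and 163 without cells of over 10 S100a8 and S100a9 UMIs (7 libraries), 327 and 147 without both sham libraries, 73 and 37 without both severe libraries, and 0 and 0 without the library block. Falls numbered 33 in cells of 8000 to 20000 UMIs, 43 with at most 5% mitochondrial UMIs and 167 without a filter on low counts. Leaving out 1 library gave 75 to 247 rises and 25 to 133 falls.

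The injured minus sham difference in share ranged from 15.6 to 27.6 points when 1 library was left out. DESeq2 and the fit without a filter on low counts gave, for severe against sham, 393 higher and 329 lower and 429 and 378. For severe against mild they gave 414 and 230 and 378 and 342. For mild against sham they gave 195 and 316 and 164 and 235, for moderate against sham 149 and 128 and 182 and 128, and for moderate against mild 36 and 4 and 25 and 4. Fits of the 2 groups alone gave 0 and 0 for severe against sham, 272 and 154 for severe against mild, and 10 and 2 for moderate against mild. Scaling by library size gave 28 rises and 53 falls for severe against sham and 69 rises and 312 falls for severe against mild. It moved the median of all genes to -0.41 and -0.50. Leaving out 1 library gave 0 to 392 rises and 0 to 370 falls for severe against sham, 1 to 392 and 6 to 328 for severe against mild, 0 to 171 and 0 to 227 for mild against sham, 0 to 77 and 0 to 138 for moderate against sham, and 0 to 3 and 0 to 1 for moderate against mild. Where 1 library was left in a group it was assumed to vary like the others.

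Same-numbered libraries did not deviate together across all groups, so the numbers were not taken as pairs. The correlation was 0.36 between mild and severe cords and ranged from -0.218 to 0.0875 for the other pairs of groups. With the replicate block, severe against sham had 41 rises and 32 falls and severe against mild 48 and 38.

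The 9 genes with a smaller contrast in injured cords became 56 higher and 92 lower with DESeq2, 4 lower with library size scaling and 0 in cells of 8000 to 20000 UMIs. Leaving out 1 library gave 0 to 97 higher and 0 to 96 lower, and the value of Gpx2 ranged from -4.6 without mild replicate 2 to 4.08 without sham replicate 1. The causes of these changes were not tested. The group comparisons rest on 2 libraries per group and on 59 Cxcl1-high cells in sham replicate 1.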

Other observations

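Cxcl1 was not restricted to the selected cells. They held 19.9% and 50.8% of the Cxcl1 UMIs of the sham libraries, 39.3% and 46.0% in mild, 46.8% and 40.5% in moderate and 65.8% and 74.7% in severe cords. Cycling macrophages, which the rule left out through Mki67 and Top2a, held 0.73% and 20.2% of all Cxcl1 UMIs in sham, 45.5% and 42.7% in mild, 27.7% and 30.8% in moderate and 6.48% and 17.3% in severe cords. Their Cxcl1 level was 89.3 and 516 CPM in sham, 865 and 702 CPM in mild, 521 and 1097 CPM in moderate and 3271 and 5897 CPM in severe cords, so the severe libraries were the highest in cycling cells as well. Cells rich in S100a8 and S100a9 held 27.1% of the Cxcl1 UMIs of sham replicate 1, the only library with many of them (4470 cells), and at most 3.39% elsewhere.

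Mean levels of some genes were higher in cells with more Cxcl1, with no test made. Over the 7 libraries with at least 20 cells in each band, Cxcl2 averaged 953 CPM ± 227 in cells with 5 to 9 Cxcl1 UMIs, 1596 CPM ± 469 with 10 to 29 and 2664 CPM ± 639 with 30 to 99 (SD, n = 7). Sdc4 averaged 145 CPM ± 142, 211 CPM ± 185 and 326 CPM ± 251 in these bands, while the stress factor gene Ddit3 stood at 84.5 CPM ± 46.5, 90.7 CPM ± 48.3 and 89.6 CPM ± 45.4. The library left out, sham replicate 1, had only 13, 21 and 22 cells in the bands, with Cxcl2 at 5819, 4641 and 5923 CPM and no steady rise. Only 3 libraries had enough cells with 100 or more Cxcl1 UMIs, so that band was not set beside the others.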
